A study of Mus musculus with 6 samples.

Results

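The 38 genes described here are markers of the cells that build brain blood vessels, namely endothelial cells and the mural cells around them (pericytes and smooth muscle). They were chosen by gene symbol, as rows of the deposited table whose symbol is on a list of such markers, and their reads were summed over transcripts. They are 38 of the 24532 genes of the table. Among them 25 mark endothelial cells or the blood-brain barrier, 9 mark pericytes and 4 mark smooth muscle. Foxf2, a factor of both pericytes and endothelium, is counted with the 25. All 38 had enough reads to be tested, beside 15774 genes tested in all.

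The tissue was the nucleus accumbens core, a region of the ventral striatum with roles in reward and motivation, and its messenger RNA was sequenced. The mice were wild-type adolescent males (postnatal days 35 to 55). That range is shorter than the 27-day drinking assay below, so it cannot be the age over the whole course. The age at tissue collection is not given here. Per the labels they were fear conditioned to a context, exposed to ethanol on 1 day in a binge-like way, put through extinction trials, and then given an every-other-day drinking assay for 27 days, with tissue taken 24 h after its end. The ethanol day consisted of 6 intraperitoneal injections of 20% v/v ethanol in saline spread over 6 h, the first of 1.8 g/kg and the later ones of 1.2 g/kg. Sample titles give 3 control and 3 ethanol samples, but the treatment field says ethanol exposure for all 6, so what the controls received is not clear from the labels. They also do not say whether a sample is 1 animal or a pool, and p-values cover only how much these samples vary, which may be technical.

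Endothelial cells of brain capillaries are joined by tight junctions and carry transporters that let glucose, lactate, hormones and lipids pass and pump drugs out, which together form the blood-brain barrier. Pericytes lie on the capillary wall within the basement membrane and receive platelet-derived growth factor from the endothelium. Smooth muscle cells wrap arterioles and set their width through contractile proteins. These cells are a minority in brain tissue, so their genes are read here against RNA from neurons and glia, and in such bulk samples fewer cells of a type and less RNA per cell cannot be told apart.

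Depth ranged from 35898026 to 67399599 estimated reads per library, and 3 reads stood for 0.0478 to 0.082 CPM (reads per 1e+06 reads of a library, scaled with TMM factors), which covers counting error only. No 2 libraries agreed within sampling noise. The labels give no batch. The first principal component, which held 38.91% of the variance, placed ethanol 1 at 48.59 and ethanol 3 at 19.95, while ethanol 2 lay at -15.13, among the controls at -10.13 to -27.48. Ethanol 2 also stood apart in its relation of read share to transcript length, described below with the genes it touches.

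All the defining markers fixed for the vascular cells were present in every library. The fewest reads of any vascular gene in a library were 8, for the smooth muscle gene Cnn1 in ethanol 3. Cdh5, the endothelial cadherin, which is not among the 38 genes, had 13.2, 10.01 and 13.6 CPM in control 1, 2 and 3 and 15.8, 8.35 and 15.2 CPM in ethanol 1, 2 and 3. Its groups overlapped, with both extremes in ethanol libraries.

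No vascular gene passed the test between ethanol and control (edgeR's quasi-likelihood test with Benjamini-Hochberg adjustment at 0.05), and 0.0% of the 15774 genes did. The smallest adjusted p over all genes was 0.4117. At an unadjusted p under 0.05, 3 of the 38 genes stood lower in ethanol and 0 higher, which is 7.89% of them against 10.7% of all genes tested in either direction (5.34% lower and 5.31% higher). Those 3 are Slco1a4, an organic anion transporter of the barrier, Rgs5, a signalling regulator of pericytes, and Sox17, an endothelial transcription factor. DESeq2 called 0 of the 38 genes, and 0.913% of all genes.

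The control and ethanol libraries did not overlap for 6 of the 38 genes, or 15.8%, against 17.8% of all genes. All 6 stood lower in ethanol, a direction without overlap that holds for 8.41% of all genes. They are Slco1a4, Slco1c1, Sox17, Foxf2, Rgs5 and Cnn1. For 0 genes did all ethanol libraries lie above all controls, against 9.35% of all genes. By the sign of the fitted difference alone, 25 genes were lower and 13 higher in ethanol, or 65.8% lower against 47.3% of all genes.

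The median log2 fold change of the 38 genes, ethanol minus control, was -0.12, beside 0.02 for all genes tested. It was -0.12 for the 25 endothelial and barrier genes, of which 16 were lower, -0.11 for the 9 pericyte genes, of which 6 were lower, and -0.25 for the 4 smooth muscle genes, of which 3 were lower. The smooth muscle median was -0.45, -0.07 and -0.16 without control 1, control 2 and ethanol 2, and the pericyte median was -0.29 without ethanol 1. The endothelial and barrier median was -0.19 without control 1 and -0.08, -0.06 and -0.07 without control 3, ethanol 1 and ethanol 3. For 29 genes the fitted difference was under 0.3 on the log2 scale, and for 5 it was over 0.5. For 31 genes the 95% interval lay within a 2-fold change in either direction, so a larger difference lies outside their intervals. The intervals of 3 genes left out 0 before adjustment.

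**Figure D1:**
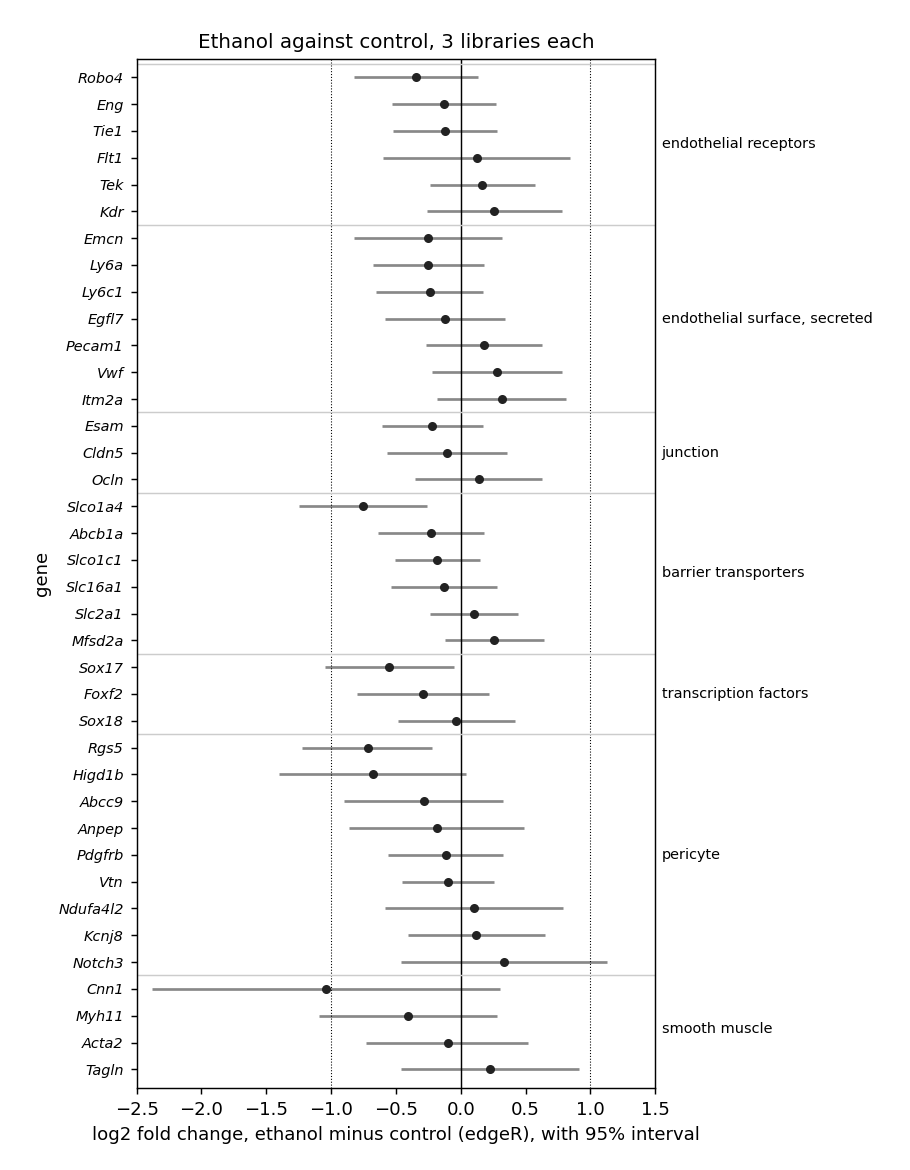
Log2 fold change, ethanol minus control, with its 95% interval from edgeR for the 38 vascular genes (3 libraries per group), ordered by role. The intervals of Slco1a4, Rgs5 and Sox17 lie below 0, that of Cnn1 is the widest, from -2.38 to 0.30, and dotted lines mark a 2-fold change.

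By level per transcript length, in the deposited FPKM averaged over the 6 libraries, the order ran from Vtn at 42.9 to Cnn1 at 0.169. Vtn, a matrix glycoprotein made by pericytes, Slc2a1, the glucose transporter of the barrier, at 42.0 and Ly6c1, a surface protein of capillary endothelium, at 41.6 led the order. Their levels in single libraries spread more widely than the distances between these means. The tight junction protein gene Cldn5 came next at 30.7, then Ly6a at 25.1, Egfl7 at 23.1 and Itm2a at 20.4. The other 31 genes lay at 12.3 or below, with the contractile genes Tagln at 3.43, Acta2 at 2.49, Myh11 at 0.610 and Cnn1 at 0.169. Cells other than vessels also express several of these genes in brain, among them Slc2a1 and Slco1c1 in astrocytes and Slc16a1 in glia.

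The 6 endothelial receptor genes were split by direction, 3 lower and 3 higher in ethanol, with a median of 0.002 on the log2 scale. Robo4, a guidance receptor of endothelium, had 8.21, 9.23 and 9.81 CPM in control 1, 2 and 3 and 6.74, 6.23 and 8.51 CPM in ethanol 1, 2 and 3. Ethanol 3 lay inside the control range, and the log2 fold change was -0.34 (SE 0.21, edgeR adjusted p = 0.567). Kdr, the main signalling receptor for vascular endothelial growth factor (VEGF), had 7.05, 9.07 and 6.56 CPM in the controls and 10.7, 7.25 and 9.12 CPM in ethanol, again with overlapping groups (log2 fold change 0.26, SE 0.23).

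Tek, the angiopoietin receptor, was among the steadiest genes in the controls, with 10.3, 10.4 and 10.8 CPM, against 12.9, 10.3 and 12.1 CPM in ethanol. Ethanol 2 sat with the controls and the other ethanol libraries above them (log2 fold change 0.17, SE 0.18). Eng, a co-receptor for transforming growth factor beta and the receptor gene with the highest FPKM of its class, had 26.6, 23.5 and 27.8 CPM in the controls and 26.3, 19.2 and 25.7 CPM in ethanol. Only ethanol 2 lay below the control range (log2 fold change -0.13, SE 0.18). The other receptor genes, Flt1, which also binds VEGF, and Tie1, the partner of Tek, differed by 0.12 and -0.12.

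The 7 endothelial surface and secreted genes were divided too, 4 lower and 3 higher. Itm2a, a membrane protein, had 34.3, 45.8 and 28.4 CPM in the controls and 41.6, 55.2 and 38.5 CPM in ethanol (log2 fold change 0.32, SE 0.22, edgeR adjusted p = 0.608). Ly6a had 29.5, 32.7 and 33.1 CPM in the controls and 21.0, 33.1 and 26.1 CPM in ethanol, where ethanol 2 matched the highest control (log2 fold change -0.25, SE 0.19). Ly6c1, which like Ly6a is anchored to the membrane by a lipid, had 39.8, 51.7 and 46.9 CPM in the controls and 33.5, 46.4 and 37.4 CPM in ethanol (log2 fold change -0.24, SE 0.18).

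For Ly6a and Ly6c1 alike, ethanol 1 was the lowest library and ethanol 2 lay within the control range. Ly6c2, a close paralog of Ly6c1, was assigned 1.42 to 3.12 CPM per library, and whether reads were split rightly between these paralogs was not tested. The remaining surface and secreted genes were Pecam1 and Vwf, with differences of 0.18 and 0.28, and Emcn and Egfl7, with -0.25 and -0.12. Pecam1 is an adhesion molecule of endothelial contacts, Vwf the clotting factor that binds platelets, Emcn a mucin and Egfl7 a secreted vessel factor.

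The 3 junction genes showed no gap between the groups. Cldn5, which encodes the main claudin of barrier tight junctions (chr16:18776847-18778262, mm10), had 46.1, 52.4 and 65.4 CPM in the controls and 43.0, 63.8 and 45.6 CPM in ethanol. Ethanol 1 and 3 lay just below the controls and ethanol 2 among them, and the log2 fold change was -0.10 with a 95% interval from -0.57 to 0.36 (edgeR adjusted p = 0.876). Ocln, the occludin gene, had 5.74, 4.91 and 5.39 CPM in the controls and 5.18, 6.31 and 6.23 CPM in ethanol (log2 fold change 0.14). Esam, an endothelial adhesion molecule, had 16.8, 20.9 and 20.4 CPM in the controls and 15.1, 18.5 and 16.2 CPM in ethanol (log2 fold change -0.22), with ethanol 2 alone inside the control range.

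Of the 6 barrier transporter genes, 4 were lower and 2 higher in ethanol, and Slco1a4 had the smallest p of all 38 vascular genes. It carries bile acids, steroid conjugates and drugs across the capillary endothelium. The gene lies at chr6:141805440-141856171 (mm10). Its level was 34.1, 40.5 and 41.8 CPM in control 1, 2 and 3 and 17.9, 20.2 and 30.8 CPM in ethanol 1, 2 and 3. Every ethanol library lay below every control, and ethanol 3 was nearest to them.

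Controls averaged 38.8 ± 4.15 CPM of Slco1a4 and ethanol libraries 23.0 ± 6.91 CPM (SD, n = 3 each). Mean FPKM was 8.67 and 4.81. The log2 fold change was -0.76 (SE 0.22, 95% interval -1.25 to -0.26), or 0.592 of the control level. With edgeR the adjusted p was 0.419, and with DESeq2 it was 0.0952, so the difference did not pass either test. Leaving out each library in turn gave values from -1.02 to -0.60. Reads assigned to its close paralogs were few: 0 for Slco1a1, 4 to 13 per library for Slco1a5 and 0 to 4 for Slco1a6, against 831 to 1963 for Slco1a4.

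The 250 bases before the RefSeq start of Slco1a4 and of Rgs5 were searched for the core motif of SOX factors. Among the vascular genes this pair had the smallest p. The motif was chosen because Sox17, a factor of the SOX family, had the third smallest p, so the choice followed the data. Whether Sox17 acts on either gene was not tested. The bases come from RefSeq (GRCm38.p6), Slco1a4 from the minus strand of chr6:141856221-141856470 and Rgs5 from the plus strand of chr1:169655251-169655500. The RefSeq start of Slco1a4 lies outside the deposited locus given above, which ends at 141856171, and positions here count from the RefSeq start. Capitals mark the core motif of SOX factors, ACAAT, or the same on the other strand, ATTGT.
Slco1a4: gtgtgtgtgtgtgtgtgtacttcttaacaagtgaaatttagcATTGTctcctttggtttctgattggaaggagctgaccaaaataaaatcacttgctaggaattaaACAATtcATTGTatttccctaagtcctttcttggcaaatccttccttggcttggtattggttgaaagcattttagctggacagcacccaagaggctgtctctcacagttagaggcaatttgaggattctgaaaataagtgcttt
Rgs5: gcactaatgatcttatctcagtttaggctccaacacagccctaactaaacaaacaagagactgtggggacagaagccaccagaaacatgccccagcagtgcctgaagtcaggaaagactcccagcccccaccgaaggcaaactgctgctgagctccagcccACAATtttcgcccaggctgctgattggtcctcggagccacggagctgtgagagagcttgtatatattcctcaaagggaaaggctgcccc
The Slco1a4 stretch held 3 matches, which begin 208, 144 and 137 bases before the start, and the Rgs5 stretch held 1, which begins 89 bases before it. RefSeq gave 31 promoters for 27 vascular genes, of which 7, each of another gene, held a match, or 22.6% of promoters against 27.7% of all 32851. A match is a description of letters and not a binding site.

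Mfsd2a, the lipid transporter that carries docosahexaenoic acid into the brain, had 28.9, 21.7 and 26.1 CPM in the controls and 32.4, 31.5 and 27.9 CPM in ethanol. Ethanol 3 lay below the highest control, and the log2 fold change was 0.26 (SE 0.17, edgeR adjusted p = 0.587). Abcb1a, the drug efflux pump, had 21.6, 24.5 and 19.5 CPM in the controls and 17.3, 16.3 and 22.3 CPM in ethanol (log2 fold change -0.23, SE 0.18). Its paralog Abcb1b, with 1.80 to 3.61 CPM per library, also overlapped between the groups.

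Slc2a1 (chr4:119108745-119137329, mm10) had 124.7, 120.8 and 134.9 CPM in the controls and 141.1, 144.4 and 123.0 CPM in ethanol. The log2 fold change was 0.10 with a 95% interval from -0.24 to 0.44, and the groups overlapped through ethanol 3. Slco1c1, which carries thyroid hormone and lies on chromosome 6 near Slco1a4, had 48.5, 47.8 and 50.4 CPM in the controls and 44.3, 39.8 and 45.2 CPM in ethanol. All ethanol libraries were below all controls, by a smaller step than for Slco1a4, and the log2 fold change was -0.18 (SE 0.15, edgeR adjusted p = 0.662). Slc16a1, a lactate transporter, differed by -0.13 and overlapped.

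All 3 transcription factor genes had a fitted difference below 0. Sox17, which acts in arterial and barrier endothelium (chr1:4490928-4497354, mm10), had 9.01, 8.89 and 9.68 CPM in the controls and 5.15, 6.04 and 7.67 CPM in ethanol. The controls lay close together and every ethanol library was below them. The mean was 9.19 ± 0.426 CPM in controls and 6.29 ± 1.28 CPM in ethanol (SD, n = 3 each). The log2 fold change was -0.55 (SE 0.22, 95% interval -1.05 to -0.05), with an edgeR adjusted p of 0.448 and a range from -0.71 to -0.42 without each library in turn.

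Sox18, a relative of Sox17 in the same cells, had 6.98, 8.47 and 8.15 CPM in the controls and 7.38, 8.30 and 7.38 CPM in ethanol. These groups overlapped throughout, and the log2 fold change was -0.03 (SE 0.20, 95% interval -0.48 to 0.42). Whether the differences of Sox17 and Sox18 differ from each other was not tested. Foxf2, a forkhead factor of brain pericytes and endothelium, had 4.69, 5.02 and 5.47 CPM in the controls and 4.46, 4.16 and 3.76 CPM in ethanol. The groups did not overlap, although ethanol 1 came close to control 1, and the log2 fold change was -0.29 (SE 0.23, edgeR adjusted p = 0.644).

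**Figure D2:**
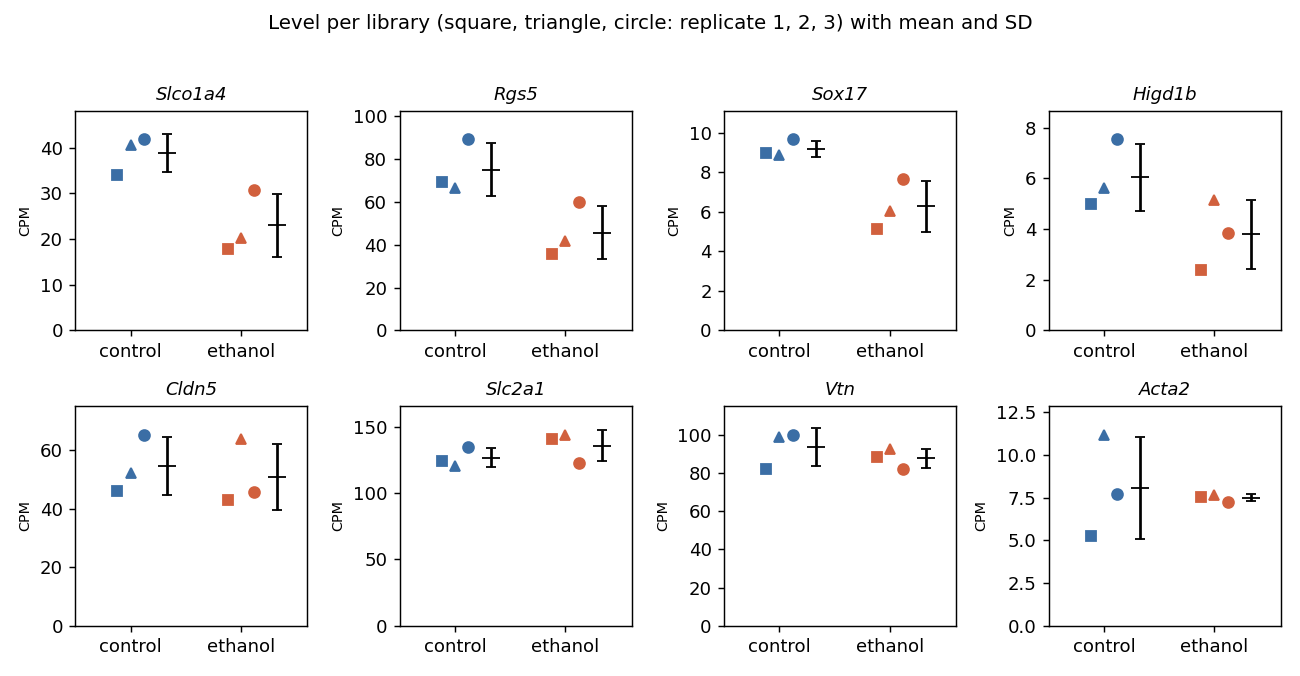
CPM of 8 vascular genes in each library, with the mean and SD of each group (n = 3) beside the points; squares, triangles and circles are replicates 1, 2 and 3 and every axis starts at 0. The groups are apart for Slco1a4, Rgs5 and Sox17 and overlap for Higd1b, Cldn5, Slc2a1, Vtn and Acta2.

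Among the 9 pericyte genes, 6 were lower and 3 higher in ethanol. Rgs5, which speeds the shut-off of G protein signals and is among the best known pericyte markers (chr1:169655501-169695813, mm10), had 69.3, 66.6 and 89.1 CPM in the controls and 35.7, 41.5 and 59.6 CPM in ethanol. Every ethanol library was below every control, with ethanol 3 nearest, the same order of ethanol libraries as for Slco1a4 and Sox17. The SD was 12.3 CPM among controls and 12.5 CPM among ethanol libraries (n = 3 each). Mean FPKM was 15.6 and 8.92.

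The log2 fold change of Rgs5 was -0.72 (SE 0.22, 95% interval -1.22 to -0.22), or 0.608 of the control level. It did not pass the test, with an adjusted p of 0.427 from edgeR and 0.110 from DESeq2, and it ranged from -0.95 to -0.57 without each library in turn. Higd1b, a mitochondrial protein gene found in pericytes, had 4.999, 5.61 and 7.55 CPM in the controls and 2.37, 5.14 and 3.86 CPM in ethanol. Ethanol 2 lay inside the control range, and the log2 fold change was -0.68 (SE 0.32, edgeR adjusted p = 0.483).

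Vtn (chr11:78499120-78502325, mm10), the pericyte gene with the highest FPKM, had 82.0, 98.9 and 100.3 CPM in the controls and 88.8, 92.5 and 82.3 CPM in ethanol. All ethanol values lay within the control range (log2 fold change -0.09, 95% interval -0.45 to 0.26). Kcnj8 (chr6:142564837-142571614) and Abcc9 (chr6:142587862-142702274) encode the pore and the regulatory subunit of the ATP-sensitive potassium channel of pericytes and lie 16248 bp apart. Abcc9 had 7.06, 9.20 and 6.81 CPM in the controls and 7.38, 4.19 and 7.38 CPM in ethanol, where ethanol 2 alone was low (log2 fold change -0.28, SE 0.27). Kcnj8 differed by 0.12, with overlapping groups.

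The other pericyte genes also overlapped between the groups. Pdgfrb, the receptor for platelet-derived growth factor, differed by -0.11 and Anpep, a peptidase of the pericyte surface, by -0.18. Ndufa4l2, a mitochondrial protein gene, differed by 0.11 and Notch3, the Notch receptor of mural cells, by 0.33. Summed over the 9 genes, pericyte CPM were 222.8, 239.5 and 259.8 in the controls and 212.4, 188.0 and 212.4 in ethanol, without overlap. Without Rgs5 the sum was 153.6, 172.9 and 170.6 in the controls and 176.6, 146.6 and 152.8 in ethanol, and the groups overlapped. The gap in the pericyte sum thus rested on Rgs5.

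The 4 smooth muscle genes had FPKM of 3.43 or less, and 3 of them were lower in ethanol by sign. Cnn1, a calponin of contractile cells, had 0.451, 0.780 and 0.437 CPM in the controls and 0.271, 0.317 and 0.215 CPM in ethanol, from 8 to 30 reads per library. Groups did not overlap, and the log2 fold change was -1.04 (SE 0.60, 95% interval -2.38 to 0.30, edgeR adjusted p = 0.543). Myh11, the smooth muscle myosin heavy chain, had 4.29, 5.90 and 6.51 CPM in the controls and 4.97, 2.68 and 4.94 CPM in ethanol (log2 fold change -0.40, SE 0.31). Ethanol 2 lay below all controls and the other ethanol libraries within their range.

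Tagln, an actin-binding protein, had 4.77, 7.17 and 6.40 CPM in the controls and 5.86, 10.4 and 5.21 CPM in ethanol, with ethanol 2 the highest of all libraries (log2 fold change 0.23, SE 0.31). Acta2, smooth muscle actin (chr19:34240336-34255373, mm10), had 5.24, 11.2 and 7.71 CPM in the controls and 7.54, 7.67 and 7.27 CPM in ethanol. Here the controls spread 2.99 CPM (SD) and the ethanol libraries 0.202 CPM, and the log2 fold change of -0.10 lies within that spread.

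Over the 6 libraries of both groups, the ratio of the highest to the lowest library of a gene ran from 1.20 to 3.63. Its median was 1.58, and it includes any difference between the groups. Libraries of the same group differed as well. The median coefficient of variation was 12.2% among controls and 19.1% among ethanol libraries, and 28 of the 38 genes varied more among the ethanol libraries. For all genes tested the medians were 11.4% and 22.0%, so this width is shared by genes of other cells. Control 3 was the highest library for 13 of the 38 genes, control 2 for 10 and control 1 for 1. Ethanol 1 was the highest for 8, ethanol 2 for 6 and ethanol 3 for 0. The lowest library was ethanol 1 for 10, ethanol 2 for 9 and ethanol 3 for 4. It was control 1 for 8, control 2 for 4 and control 3 for 3.

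**Figure D3:**
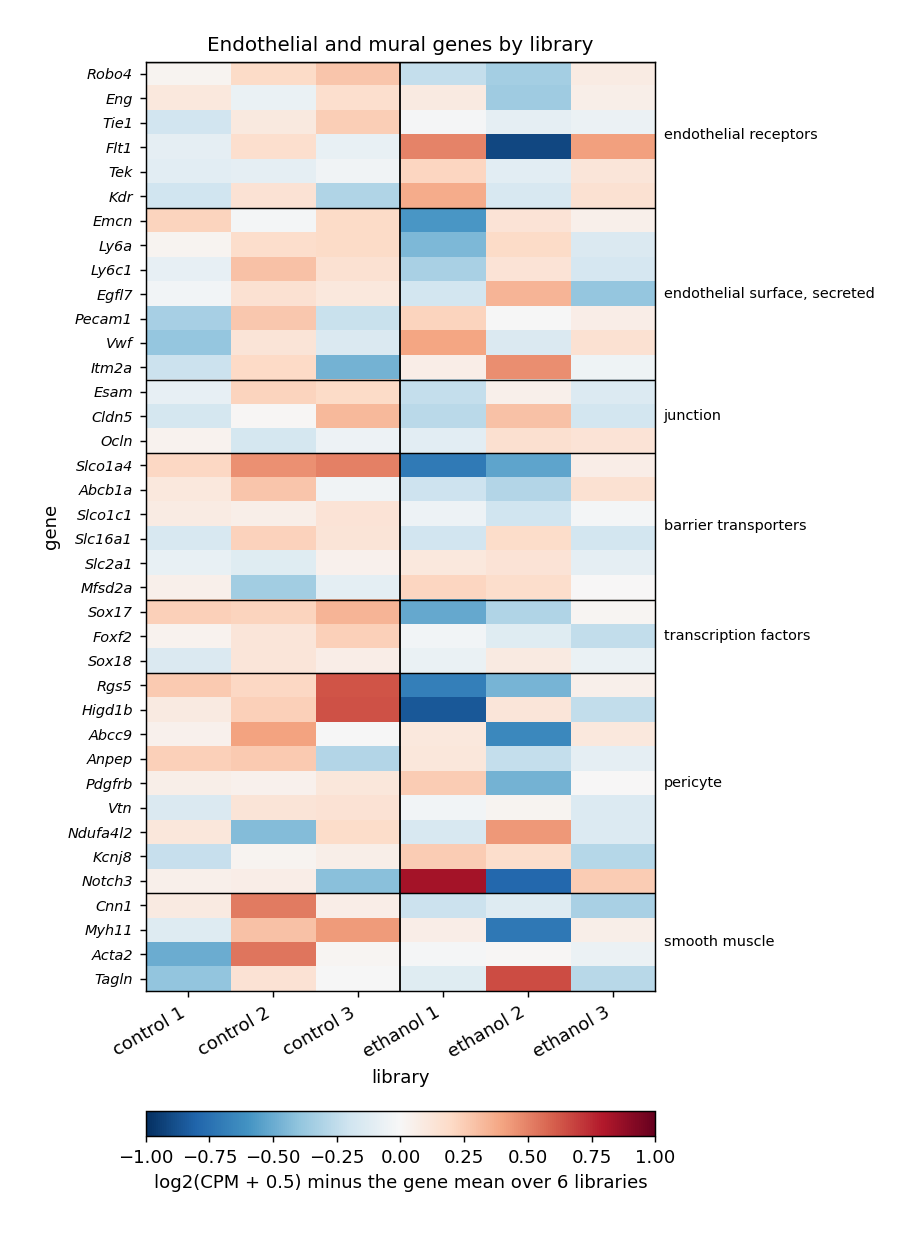
Level of the 38 vascular genes in each library as log2(CPM + 0.5) minus the mean of the gene over the 6 libraries, with rows grouped by role and sorted by log2 fold change. Flt1 and Notch3 are high in ethanol 1 and low in ethanol 2, and Slco1a4, Sox17 and Rgs5 are lowest in ethanol 1.

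Ethanol 2 departed from its group with transcript length. Across the 38 genes, Spearman's rho between log2 length and the deviation of a library from the gene mean was -0.77 in ethanol 2, 0.53 in ethanol 1 and 0.75 in ethanol 3. It was -0.62, 0.32 and 0.54 across all 15774 genes, and between -0.23 and 0.09 in the controls. These are descriptions across genes, which share a library and are not independent replicates. In ethanol 2 the median deviation was 0.14 for the 19 shorter vascular genes and -0.30 for the 19 longer ones, on the log2 scale, with the dividing length at 3185 bases.

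Flt1 and Notch3 had the lowest deviations in ethanol 2, at -0.91 and -0.78, while Vwf, the longest at 8834 bases, had -0.15. Flt1, with 6280 bases, had 24.6, 29.6 and 24.8 CPM in the controls and 37.1, 13.7 and 35.1 CPM in ethanol, so that the ethanol libraries lay on both sides of the controls. Notch3, with 7943 bases, had 17.8, 18.0 and 12.7 CPM in the controls and 30.9, 9.76 and 20.5 CPM in ethanol, a coefficient of variation of 51.8%. Without ethanol 2 the log2 fold change of Flt1 was 0.44 and that of Notch3 0.66, and 0 of the 38 genes passed, against 1.33% of all genes in that fit.

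With the length trend of each library removed, a correction chosen after the data were seen, the log2 fold change was -0.80 for Slco1a4, -0.76 for Rgs5 and -0.59 for Sox17. In that fit the adjusted p from edgeR was 0.185, 0.190 and 0.232. The 3 genes thus kept their direction and size, and none of them passed.

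**Figure D4:**
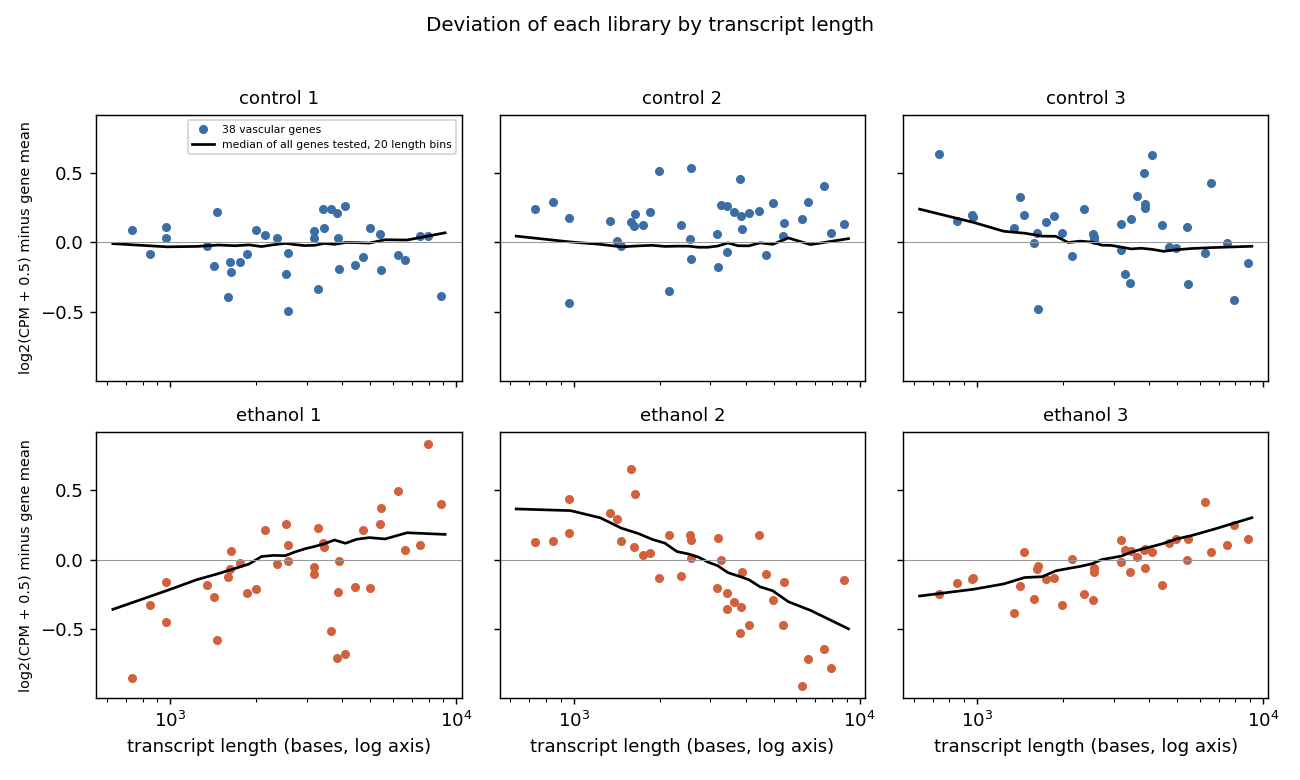
Deviation of each library, log2(CPM + 0.5) minus the gene mean, against transcript length on a log axis for the 38 vascular genes (points) and the median of all tested genes in 20 length bins (line). The points slope down with length in ethanol 2 and up in ethanol 1 and 3, along the line of all genes.

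Markers of other cell types differed among the libraries too, with 0 genes of these lists passing the edgeR test. DESeq2, which called 0.913% of all genes, called Hapln2 (adjusted p = 0.00873), Slc13a4 (0.0279) and Kcnj13 (0.0299) lower in ethanol. It called Slc1a3 (adjusted p = 0.0277) and Drd2 (0.0333) higher. Kcnj13 rested on few reads, with 15, 18 and 65 in control 1, 2 and 3 and 4, 0 and 0 in ethanol 1, 2 and 3. All 13 tested markers of meningeal fibroblasts, the cells of the brain's coverings that also line large vessels, were lower in ethanol by sign, and 4 at an unadjusted p under 0.05. Their summed CPM were 66.3, 119.6 and 69.0 in the controls and 60.0, 52.2 and 58.6 in ethanol, without overlap, with control 2 the highest for all 13. The fourteenth, Slc47a1, was at 0 in some libraries. Markers of cortical neurons summed to 330.6, 73.5 and 109.7 CPM in the controls and 33.8, 18.5 and 71.7 CPM in ethanol, without overlap. Slc17a7 alone made 288.6 CPM of the sum in control 1. By sign 4 of 5 tested markers were lower, and Emx1 was at 0 in some libraries.

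Summed astrocyte markers were higher in every ethanol library, from 3547 to 4375 CPM against 3095 to 3432 CPM, with 7 of 8 markers higher by sign. Medium spiny neuron markers summed to 1753, 1949 and 1618 CPM in the controls and 1899, 3530 and 1577 CPM in ethanol. By sign 8 of these 9 were higher, as were 6 of 8 microglia markers, while 6 of 8 oligodendrocyte markers were lower. Blood markers ranged from 119.2 to 225.0 CPM in the controls and from 112.3 to 446.1 CPM in ethanol, highest in ethanol 2, with all 4 tested markers higher by sign. Hbb-bs, Hbb-bt, S100a8 and S100a9 were at 0 in some libraries. The lowest blood sums, those of control 2 and ethanol 3, lacked Hbb-bs reads, which made 71.3 to 190.2 CPM elsewhere. The cause of that gap was not tested. The log2 fold change of Hbb-bs was 0.72 (SE 1.7, 95% interval -3.12 to 4.57). Hba-a1, with reads in every library, had 92.9, 116.5 and 122.1 CPM in the controls and 125.5, 234.0 and 103.0 CPM in ethanol. Choroid plexus markers summed to 427.6 CPM in control 3, of which Ttr alone made 394.4 CPM, and to 23.6 to 37.2 CPM in the other 5 libraries. Folr1, Kcnj13 and Aqp1 were at 0 in some. The part of these cells in the lower values of Slco1a4, Rgs5 and Sox17 was not tested.

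Summed levels of the vascular genes overlapped between the groups for endothelial and smooth muscle genes, but not for the pericyte genes, as given above. The 25 endothelial and barrier genes summed to 655.8, 729.2 and 725.3 CPM in the controls and to 658.1, 708.5 and 657.5 CPM in ethanol, with overlap. The smooth muscle sums were 14.8, 25.05 and 21.1 CPM and 18.6, 21.1 and 17.6 CPM, also with overlap. Sums over CPM are led by the genes with the most reads.

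The deposited reads were estimated per transcript, and 16 of the 38 genes had reads on 2 or more transcripts. For 8 of these the leading transcript differed among the libraries. Abcc9 had 100% of its reads on variant 2 in 5 libraries and 100% on variant 1, with 463 reads, in ethanol 1. Pdgfrb, whose variants of 5413 and 5410 bases are nearly the same, had 13.4%, 89.5% and 85.9% on variant 1 in the controls and 22.2%, 100% and 9.26% in ethanol. Such swings occur within both groups.

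Tek, with variants of 4699 and 4702 bases, had from 0% to 94.1% of its reads on variant 2. Eng had 80.7%, 4.53% and 44.3% on variant 1 in the controls and 75.2%, 54.6% and 76.5% in ethanol. Sox17 had 64.4%, 71.3% and 23.4% of its reads on variant 1 in the controls and 14.6%, 0% and 71.7% in ethanol, so its summed level is firmer than any of its variants. Rgs5 had at least 99.9% on variant 1 in every library, so its difference lies in 1 transcript. Of 59 vascular transcripts tested unsummed, 0 passed and 2 had an unadjusted p under 0.05, which is 3.39% against 6.55% of 22527 transcripts.

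**Figure D5:**
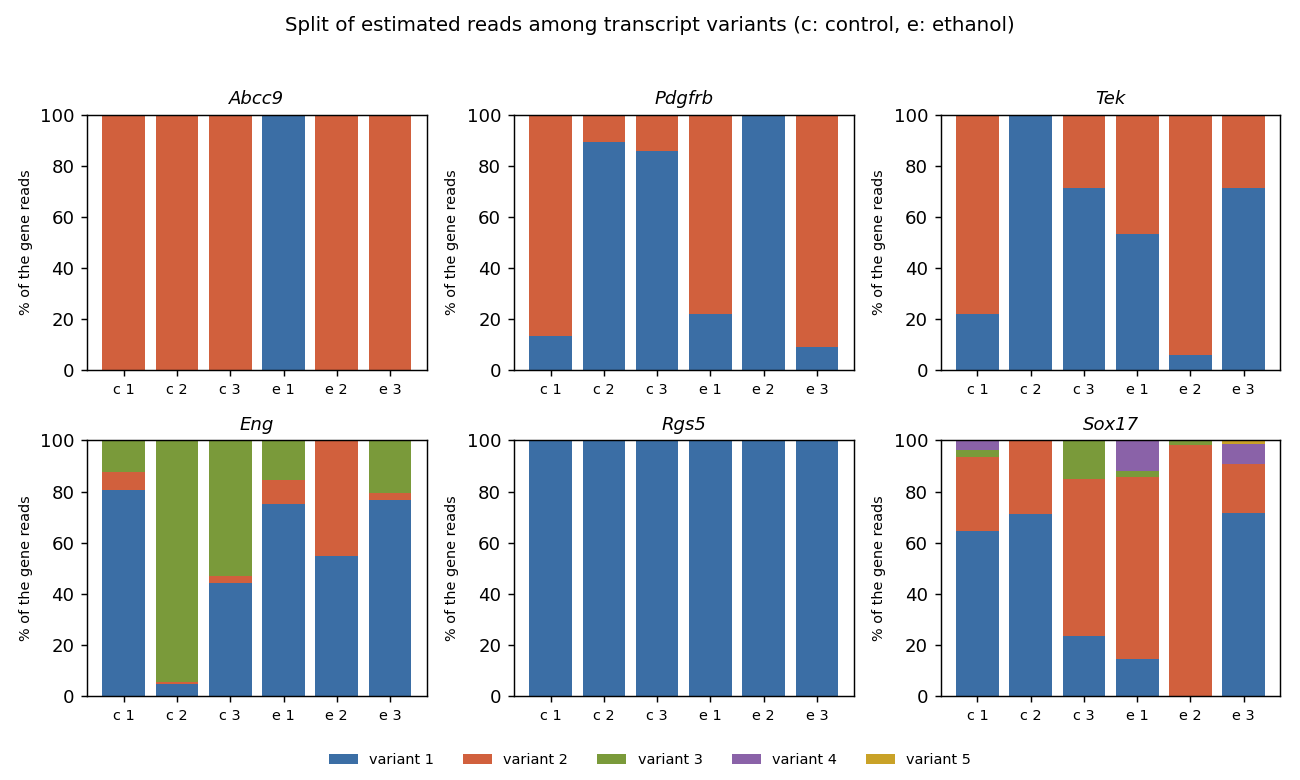
Percent of the estimated reads of a gene on each transcript variant, by library, for 6 vascular genes (c, control; e, ethanol). Abcc9 switches wholly in ethanol 1, Pdgfrb, Tek, Eng and Sox17 swing within both groups, and Rgs5 stays on variant 1.

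Other genes of the same vascular pathways were taken from 9 lists, and 0 of them passed the edgeR test. Some genes stand in more lists than 1. Of 24 further barrier genes, 15 were lower and 9 higher, with a median log2 fold change of -0.08. At an unadjusted p under 0.05, 2 were lower and 2 higher. Slc7a1, the cationic amino acid transporter, had 33.2, 30.1 and 26.3 CPM in the controls and 60.5, 29.6 and 48.3 CPM in ethanol, with ethanol 2 among the controls (log2 fold change 0.63). Tfrc, the transferrin receptor, had 65.6, 72.4 and 63.1 CPM in the controls and 37.3, 45.0 and 62.1 CPM in ethanol. Its groups did not overlap, with ethanol 3 nearest the controls (log2 fold change -0.48, SE 0.20, edgeR adjusted p = 0.459). Ager, the receptor for glycated proteins, differed by -1.02 at 0.617 to 2.16 CPM, without overlap.

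Among 18 genes of VEGF and angiopoietin signalling, 10 were lower and 8 higher, with a median of -0.08. Plxnd1, a semaphorin receptor, had 33.5, 39.9 and 31.8 CPM in the controls and 56.2, 44.3 and 44.7 CPM in ethanol, without overlap (log2 fold change 0.47, SE 0.17, edgeR adjusted p = 0.448). Nrp2, a VEGF co-receptor, differed by 0.76 and the peptide ligand Apln by 0.33, both with overlap. Of 14 genes of the Wnt pathway that builds the barrier, 7 were lower and 7 higher. Fzd4, the endothelial Frizzled receptor, had 1.87, 1.87 and 1.20 CPM in the controls and 4.09, 2.09 and 3.76 CPM in ethanol, without overlap (log2 fold change 1.00, SE 0.36, edgeR adjusted p = 0.439). Reck, which presents Wnt ligands to that receptor, differed by -0.46 without overlap, and the Wnt target Apcdd1 by 0.46 with overlap.

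Of 12 Notch genes, 3 were lower and 9 higher, with 0 at an unadjusted p under 0.05. The ligand Jag1 differed by -0.47, the target Nrarp by 0.27 and the receptor Notch1 by 0.29, all with overlap. Of 16 genes of growth factor signalling to mural cells, 5 were lower and 11 higher. Pdgfra, a receptor found mainly on oligodendrocyte precursors and fibroblasts, differed by 0.59, S1pr1, a sphingosine receptor, by 0.40, and the ligand Pdgfa by 0.34. S1pr1 and Pdgfa did not overlap between the groups. Without ethanol 2, edgeR gave Pdgfra 0.78 (adjusted p = 0.0393), Slc7a1 0.85 (adjusted p = 0.0465) and Nrp2 1.10 (adjusted p = 0.0266). These passed the threshold in that fit, which called 201 genes higher and 10 lower. Their transcripts are long, at 6549, 7174 and 6454 bases. In ethanol 1 and 3, the ethanol libraries left, deviations rose with length (rho 0.32 and 0.54 across all genes). Those deviations are from the mean over all 6 libraries, ethanol 2 included, and were not computed without ethanol 2. The part of length in the differences of that fit was not tested.

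Of 16 basement membrane genes, 8 were lower and 8 higher, with a median of -0.04. Col4a2, a collagen chain of that membrane, had 113.5, 59.3 and 79.6 CPM in the controls and 50.7, 26.9 and 59.5 CPM in ethanol (log2 fold change -0.88, SE 0.32, edgeR adjusted p = 0.439). Its partner Col4a1 differed by -0.62, and for both ethanol 2 was the lowest library and ethanol 3 overlapped the controls. Dag1, the dystroglycan gene, had 71.5, 78.6 and 69.5 CPM in the controls and 143.4, 84.7 and 104.3 CPM in ethanol, without overlap (log2 fold change 0.60, SE 0.21).

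Of 18 tested genes of the contractile list, 8 were lower and 10 higher, led by the transcription factor Srf at 0.47, with the connexin Gja4 at 0.37 and the actin-binding Synpo2 at 0.77. Srf did not overlap between the groups, while Gja4 and Synpo2 did. Myocd was at 0 in all libraries and Actg2 was at 0 in some. Of 13 tested genes of vascular inflammation and tone, 5 were lower and 8 higher, led by the endothelin receptor Ednrb at 0.48, the cytokine receptor Tnfrsf1a at 0.37 and the ligand Edn1 at -0.70. Tnfrsf1a and Edn1 did not overlap between the groups, while Ednrb did. The leukocyte adhesion genes Sele and Selp were at 0 in all libraries, and Lcn2, Ccl2 and Cxcl1 were at 0 in some. Of 11 tested genes of arterial or venous endothelium, 4 were lower and 7 higher. The arterial kinase Bmx differed by -1.05 at 0.778 to 2.39 CPM, the adhesion gene Vcam1 by 0.29 and the venous receptor Ephb4 by 0.42. Their groups did not overlap, Bmx lower and both others higher in ethanol.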

How the data were processed

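Per the file headers, the authors deposited read counts and FPKM by RefSeq transcript for each sample. Names of mm10 and bcl2fastq, with no version, stand in the submitters' processing notes, and an aligner or counter is not given in the sources used here. Counts deposited by the authors are estimated counts, since they are whole numbers rounded up from FPKM, length and depth. Counting may split reads of isoforms, paralogs and overlapping genes wrongly, and use of strand is not stated. The deposited FPKM values serve here only to compare levels between genes.

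The 36780 transcript rows were summed to 24532 genes. Genes were kept by filterByExpr (minimum count 10), scaled by TMM, and compared by group alone with the two-sided quasi-likelihood test (edgeR 4.0.16, R 4.3.3). Adjustment ran over all 15774 genes. The script was tested on simulated data. DESeq2 1.42.0, limma 3.58.1 (voom), other scalings, no low-count filter, a replicate block and leaving out each library were alternatives. Figures used matplotlib 3.10.9.

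The vascular genes and lists were chosen with earlier results of these data known. In each role the 3 genes with the smallest p and the one with the highest FPKM are given by library, and from each further list the 3 with the smallest p. Flt1, Notch3, Slco1c1, Acta2, Cdh5, the paralogs and the pericyte sum without Rgs5 were chosen after their values were seen.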

Additional observations from a re-analysis of the deposited data

How the results depend on the processing

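The counts of genes called were 0 with edgeR under every other scaling and without the low-count filter, and 0 with limma-voom, where 1751 genes had an unadjusted p under 0.05. DESeq2 called 144 genes, 51 higher and 93 lower, and the counts without each library in turn ran from 0 to 211. The 211, with 201 higher and 10 lower, came without ethanol 2, and 1 came without control 1. With total counts only, the median log2 fold change was -0.21 for the endothelial and barrier genes and -0.20 for the pericyte genes, beside -0.06 for all genes. Without each library in turn these medians ran from -0.19 to -0.06 and from -0.29 to -0.08. They were lowest without control 1 and without ethanol 1. The smooth muscle median ran from -0.45, without control 1, to -0.07, without control 2.

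Over 14 alternatives, 29 of the 38 genes kept their direction, and 13 of 532 values were reversed, in 9 genes whose log2 fold change was 0.33 or less in size. The log2 fold change of Acta2 was 0.0021 with limma-voom. Without each library in turn, Acta2 ran from -0.34 to 0.22, Cldn5 from -0.31 to 0.0438, Egfl7 from -0.38 to 0.0259, Flt1 from -0.11 to 0.44, Ndufa4l2 from -0.16 to 0.23, Notch3 from -0.10 to 0.66, Pdgfrb from -0.29 to 0.0507, Sox18 from -0.11 to 0.0264 and Tagln from -0.15 to 0.41. The cause was not tested.

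Same-numbered samples correlated in their deviations at 0.22, -0.05 and -0.11, and differently numbered ones from -0.24 to 0.27. With 3 libraries per group this cannot decide whether the numbers pair the samples, and the labels do not say. With the replicate block 0 genes were called, the medians were -0.13 for endothelial and barrier, -0.15 for pericyte and -0.23 for smooth muscle genes, and Slco1a4 was at -0.79. Transcripts tested unsummed give no value per gene and stand in the text above. Depth limits Cnn1 most, at 8 to 30 reads per library.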
